A study of Homo sapiens with 4 samples.

Results

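The genes described here are 10 components and targets of the TGF-beta and BMP pathways in PC3 prostate cancer cells: the ligand genes TGFB1, TGFB2, BMP2 and BMP4, the receptor gene TGFBR2, the inhibitory SMAD genes SMAD6 and SMAD7, and the target genes ID1, ID2 and ID3. They were chosen by name, with earlier results of these data known. The 4 arrays held 11 probes for them among 34127 probes, with 2 probes for ID2 and 1 for every other gene. Of the 11 probes, 10 were well above background and were tested among 23244 probes, while the probe for BMP2 was not. PC3 is an established human cell line from a bone metastasis of prostate cancer. The cells were infected for 48 h with lentivirus carrying an shRNA against ALKBH3, which encodes an oxidative demethylase of alkylated DNA and RNA, or a control shRNA, which the study's methods describe as directed against GFP. RNA was collected after 48 h or 96 h of puromycin selection, so all 4 groups went through infection and selection, and each group (each shRNA at each time) was measured on 1 Agilent single-colour array. The 48 h arrays may share a slide, and so may the 96 h arrays, and in that case slide and time point cannot be told apart. The labels do not say that the arrays came from separate cultures, nor which ALKBH3 shRNA was used. The p-values below therefore measure only the spread between these arrays, which limma in part pools over all tested probes.

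TGF-beta and BMP ligands are secreted dimers that bring type II and type I serine/threonine kinase receptors together on the cell surface. The activated receptors phosphorylate receptor SMADs, of which SMAD2 and SMAD3 serve TGF-beta and SMAD1, SMAD5 and SMAD9 serve BMP, and these enter the nucleus with SMAD4 and switch target genes. SMAD6 and SMAD7 are induced by the same signals and block the receptors in return, while ID1, ID2 and ID3, inhibitors of helix-loop-helix transcription factors, are classical BMP targets. In epithelial tumours including prostate cancer the pathway is known both for growth arrest and, at later stages, for invasion and bone metastasis.

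The knockdown was visible in the target gene. Signals are given throughout as log2 of the background-subtracted intensity relative to the 75th percentile of the same array, so a difference of 1 is a 2-fold change and a value is not comparable between probes. The first ALKBH3 probe (A_23_P35989) read -0.62 in control and -2.66 in knockdown cells at 48 h, and -0.61 and -2.67 at 96 h, while the second (A_33_P3225250) read -0.73 and -2.48, and -0.89 and -2.40. Both were far lower with ALKBH3 shRNA, with log2 fold changes of -2.05 and -1.63 (limma adjusted p = 0.217 and 0.240, or 0.0247 and 0.0373 with time point as a block). The 75th percentile lay between 2134 and 2385 intensity units, well above background were 67.0% to 70.9% of the probes, and repeated spots had a median SD of 0.085 to 0.0967 (log2). All 7 probes for the epithelial and PC3 markers EPCAM, CDH1, KRT8, KRT18 and VIM were well above background on all 4 arrays, and the probe for KLK3, which encodes prostate-specific antigen and is known to be barely expressed in PC3 cells, on none, while the probe for the prostate gene TMPRSS2 was well above background on all 4.

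Among the tested probes of the 10 genes, TGFB2, ID1 and ID3 were higher with ALKBH3 shRNA at both time points and TGFB1 and both ID2 probes had log2 fold changes of at most 0.14 in size. TGFB2 alone met the cutoffs used in the study, a change of at least 2-fold and an unadjusted p under the customary level of 0.05. It was 1 of 10 member probes called higher, against 0.895% of all 23244 probes tested, and 0 of 10 were called lower, against 0.232%. An unadjusted p under 0.05 was found for 3 of the 10, against 7.64% of all probes, namely TGFB2, ID1 and ID3. After Benjamini-Hochberg adjustment over all tested probes, limma without a block placed none of the 10 past 0.05, and 0% of all probes, the smallest adjusted p on the arrays being 0.081. With time point as a replicate block, 2 of the 10, TGFB2 and ID1, passed, against 2.13% of all probes. The arrays of the groups did not overlap for 4 of the 10 probes in the higher direction (17.5% of all probes) and for 2 of the 10 in the lower direction (18.5% of all probes). The sign of the difference was the same at both time points for 9 of the 10 probes, against 68.2% of all probes. At least 1.5-fold higher at both time points were 2 of the 10, TGFB2 and ID1, against 2.28% of all probes. The median log2 fold change of the 10 was 0.17, against 0.0033 over all probes, and the median of its absolute size was 0.30, against 0.13. Since the genes were chosen with earlier results of these data known, these shares and medians are a description only. In RNA from a whole culture, fewer cells that express a gene and less RNA per cell cannot be told apart.

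**Figure D1:**
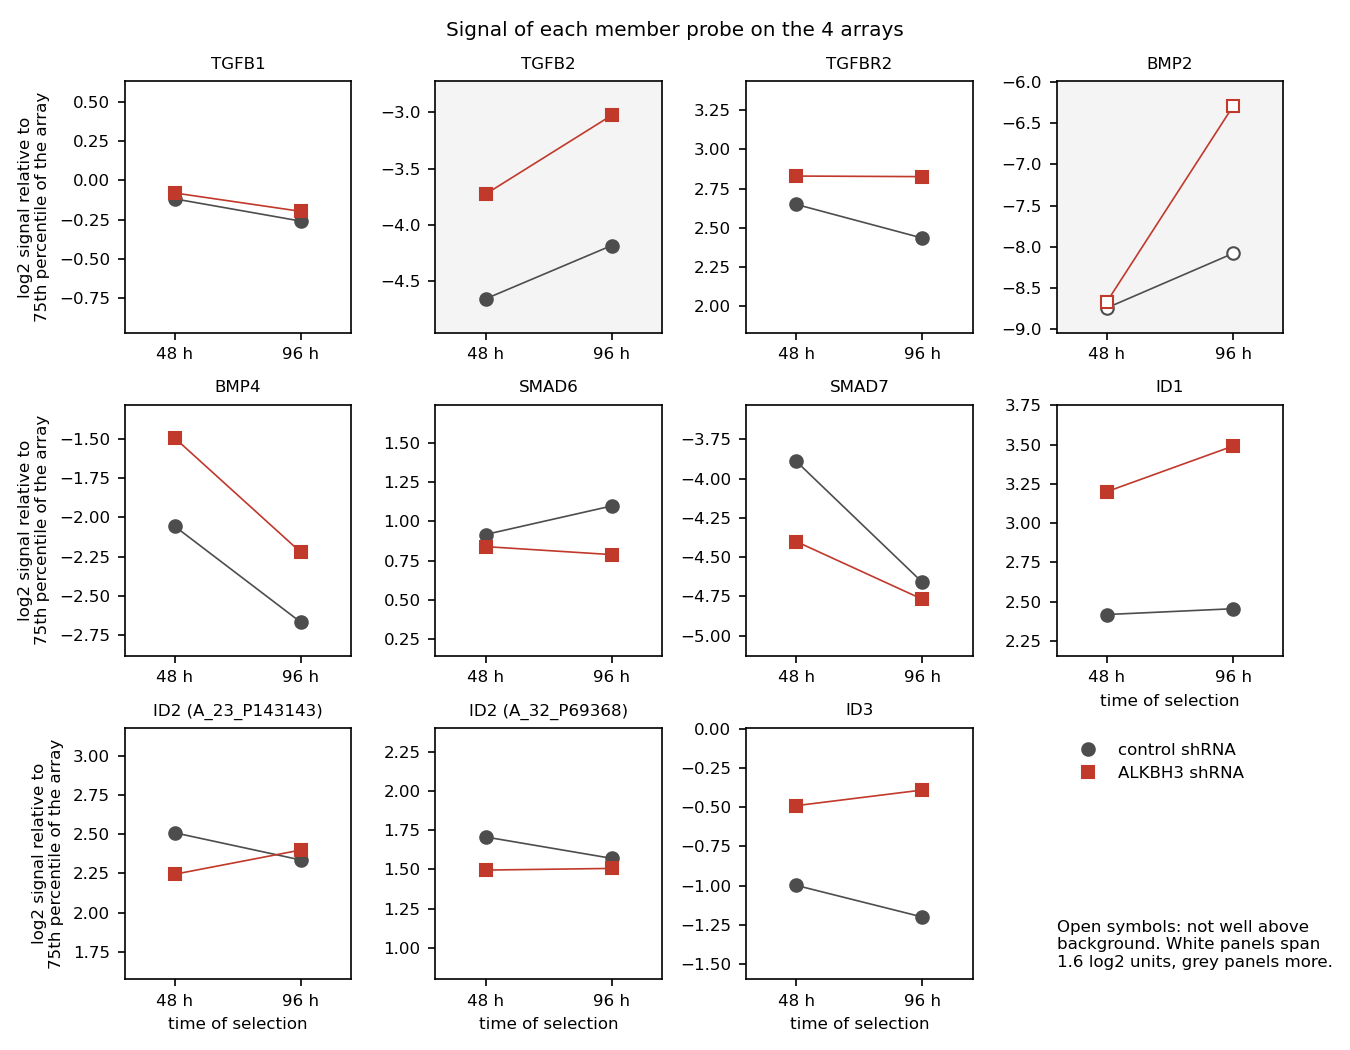
Signal of the 11 member probes on the 4 arrays, as log2 intensity relative to the 75th percentile of the array (y axis) against time of selection (x axis). Circles stand for control shRNA and squares for ALKBH3 shRNA, each symbol is 1 array, lines join the time points, and open symbols are not well above background. TGFB2, ID1 and ID3 lie higher with ALKBH3 shRNA at both times, and BMP4 and SMAD7 lie lower at 96 h than at 48 h.

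Upstream sequence was read for 9 of the 10 genes, all but BMP2, in 14 windows of 250 bases before an annotated start site (RefSeq, GRCh38.p14). The windows were searched on both strands for 3 motifs linked to SMAD binding: GTCTG (which reads CAGAC on the other strand), the GC-rich element GGCGCC linked to BMP SMADs, and the palindrome GTCTAGAC bound by SMAD3 and SMAD4 in vitro. None of them contains another. The sequences below are those of ID1, ID3 and ID2, the ID genes compared on these arrays, of TGFB2, the called gene, and of SMAD6, which holds the rarest motif. Each runs 5′ to 3′ on the strand of its gene and ends at the base before the start site, with motif matches in capitals.

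ID1: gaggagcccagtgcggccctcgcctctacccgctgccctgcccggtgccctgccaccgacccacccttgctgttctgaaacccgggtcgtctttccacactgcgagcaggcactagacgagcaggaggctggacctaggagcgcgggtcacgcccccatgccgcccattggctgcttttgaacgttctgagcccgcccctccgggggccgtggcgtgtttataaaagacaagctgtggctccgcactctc

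ID3: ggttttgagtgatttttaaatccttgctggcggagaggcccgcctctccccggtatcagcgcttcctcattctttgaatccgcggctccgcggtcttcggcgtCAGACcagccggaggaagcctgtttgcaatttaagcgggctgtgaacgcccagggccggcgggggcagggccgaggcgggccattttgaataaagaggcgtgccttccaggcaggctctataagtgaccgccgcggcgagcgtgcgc

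ID2: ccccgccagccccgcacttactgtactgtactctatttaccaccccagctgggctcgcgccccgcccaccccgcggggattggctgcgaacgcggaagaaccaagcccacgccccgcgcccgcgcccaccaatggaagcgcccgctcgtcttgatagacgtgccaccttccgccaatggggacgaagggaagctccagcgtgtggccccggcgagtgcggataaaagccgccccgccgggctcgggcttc

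TGFB2: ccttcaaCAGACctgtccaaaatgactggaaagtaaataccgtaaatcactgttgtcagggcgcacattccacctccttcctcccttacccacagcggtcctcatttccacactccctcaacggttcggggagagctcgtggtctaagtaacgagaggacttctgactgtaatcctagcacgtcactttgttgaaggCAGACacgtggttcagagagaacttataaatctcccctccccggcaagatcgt

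SMAD6: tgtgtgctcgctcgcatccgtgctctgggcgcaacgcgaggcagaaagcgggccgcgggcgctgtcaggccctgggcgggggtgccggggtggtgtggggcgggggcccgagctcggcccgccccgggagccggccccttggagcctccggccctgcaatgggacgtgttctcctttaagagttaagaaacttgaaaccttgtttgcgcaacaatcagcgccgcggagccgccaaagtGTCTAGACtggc

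The window of ID1 lies at chr20:31605039-31605288 on the plus strand, that of ID3 at chr1:23559502-23559751 on the minus strand, that of ID2 at chr2:8681806-8682055 on the plus strand, that of TGFB2 at chr1:218345086-218345335 on the plus strand and that of SMAD6 at chr15:66701986-66702235 on the plus strand. The window of ID3 held GTCTG once, starting 147 bases before the start site, and that of TGFB2 held it at 243 and at 53 bases. Neither the ID1 nor the ID2 window held any of the 3 motifs. Sequence farther from the start site was not searched, so this absence holds for these windows only. The SMAD6 window held the palindrome 12 bases before the start site, and 0.182% of 35116 such windows in the table held it. GTCTG was present in 6 of the 14 member windows, among them 2 of BMP4 and 2 of SMAD7, and in 38.0% of all windows. GGCGCC was present in 1 of the 14, a window of BMP4, and in 16.4% of all windows. A match is a description of these letters and not of a bound site.

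Of the ligands, TGFB2 had the largest difference, also among all tested members. Gene positions here and below are those of the whole gene in GRCh38.p14. TGFB2 (A_24_P402438, NM_003238, chromosome 1, 218345336 to 218444619) encodes a TGF-beta isoform that needs the co-receptor betaglycan for efficient binding. At 48 h its signal was -4.65 in control and -3.73 in knockdown cells, and at 96 h it was -4.18 and -3.03. In intensity units these were 84.8 and 172 at 48 h and 129 and 293 at 96 h, near the dim end of the scale yet well above background on all 4 arrays. Both ALKBH3 shRNA arrays exceeded both control arrays, and the order from low to high was control at 48 h, control at 96 h, knockdown at 48 h and knockdown at 96 h. The difference was 0.93 at 48 h and 1.16 at 96 h, a log2 fold change of 1.04 ± 0.30 (SE, n = 2 arrays per shRNA, 95% interval 0.26 to 1.83), or 2.06-fold (limma adjusted p = 0.530 over all probes). With time point as a block the limma adjusted p was 0.0385 and the interval 0.78 to 1.31. The 2-fold call depended on the scaling: the log2 fold change was 0.99 after median centring, 0.99 after quantile normalization, 0.75 in the authors' normalized values and 0.59 after normexp background correction, each under 2-fold. It was 0.81 without the control array at 48 h and 0.69 without the knockdown array at 96 h, again short of the call. A difference as large in size was seen in 1.29% of all tested probes.

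TGFB1 and BMP4 did not pass. TGFB1 (A_24_P79054, NM_000660, chromosome 19, 41330323 to 41353922), the most widely expressed TGF-beta ligand, was printed 10 times on the array and its signal averaged over the spots. Control and knockdown cells read -0.12 and -0.081 at 48 h, and -0.26 and -0.20 at 96 h. The arrays of the shRNAs overlapped, and the log2 fold change was 0.050 ± 0.13 (SE), with a 95% interval of -0.29 to 0.39 (limma adjusted p = 0.984), which turned to -0.0057 under median centring.

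BMP4 (A_23_P54144, NM_001202, chromosome 14, 53949736 to 53956891) encodes a BMP with roles in early development and bone. Its control and knockdown signals were -2.06 and -1.495 at 48 h, and -2.67 and -2.22 at 96 h. ALKBH3 shRNA was higher within each time point, by 0.56 and 0.45, yet the groups overlapped because both shRNAs read lower at 96 h. The log2 fold change was 0.50 ± 0.33 (SE, limma adjusted p = 0.828, or 0.0709 with time point as a block), and it ran from 0.14 without the knockdown array at 48 h to 0.87 without the knockdown array at 96 h.

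BMP2 (A_33_P3237150, NM_001200, chromosome 20, 6767686 to 6780246), a close relative of BMP4, was not well above background on any of the 4 arrays. Its spot read 4.997 intensity units in control and 5.61 in knockdown cells at 48 h, and 8.65 and 30.3 at 96 h. No fold is given, since both groups have only a bound, and the higher reading on the knockdown array at 96 h was also below the software's limit.

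TGFBR2 (A_23_P211957, NM_001024847, chromosome 3, 30606356 to 30694142) encodes the type II receptor that binds TGF-beta first. The signal rested at 2.65 in control and 2.83 in knockdown cells at 48 h, and at 2.44 and 2.83 at 96 h. The ALKBH3 shRNA arrays read alike and both lay above the control arrays, by 0.18 at 48 h and 0.39 at 96 h. The log2 fold change was 0.29 ± 0.14 (SE), with a 95% interval of -0.070 to 0.64 (limma adjusted p = 0.726, or 0.192 with time point as a block), and 20.0% of all probes had one as large.

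The inhibitory SMAD genes read lower with ALKBH3 shRNA at both times, without passing. SMAD6 (A_33_P3220470, NM_005585, chromosome 15, 66702236 to 66782849), which mainly restrains BMP receptors, had signals of 0.92 in control and 0.84 in knockdown cells at 48 h, and of 1.10 and 0.79 at 96 h. Its groups did not overlap, and its log2 fold change was -0.19 ± 0.13 (SE, 95% interval -0.54 to 0.15, limma adjusted p = 0.835). SMAD7 (A_23_P55518, NM_005904, chromosome 18, 48919853 to 48950965), which restrains both TGF-beta and BMP receptors, had signals of -3.89 and -4.40 at 48 h, and of -4.66 and -4.77 at 96 h. The control array at 48 h stood above the other 3 arrays, and the groups overlapped. The log2 fold change of SMAD7 was -0.31 ± 0.30 (SE, 95% interval -1.10 to 0.48, limma adjusted p = 0.913), and it was 0.076 without the control array at 48 h.

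Of the ID genes, ID1 and ID3 were higher with ALKBH3 shRNA and ID2 was not. ID1 (A_23_P252306, NM_002165, chromosome 20, 31605289 to 31606510), the ID gene most often used to read out BMP signalling, read 2.42 in control and 3.20 in knockdown cells at 48 h, and 2.45 and 3.49 at 96 h. In intensity units these were 11399 and 20921 at 48 h, and 12821 and 26804 at 96 h. The control arrays were 0.037 apart and both ALKBH3 shRNA arrays lay above them, by 0.78 at 48 h and 1.04 at 96 h. The log2 fold change was 0.91 ± 0.15 (SE, 95% interval 0.52 to 1.30), or 1.88-fold, with an unadjusted p of 0.00224 (limma adjusted p = 0.361, or 0.0439 with time point as a block). It fell just short of the 2-fold cutoff, met it at 1.05 without the knockdown array at 48 h, was 0.76 without the knockdown array at 96 h, and lay between 0.85 and 0.94 under the other scalings and filters tried. A difference as large was seen in 1.97% of all tested probes.

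ID3 (A_23_P137381, NM_002167, chromosome 1, 23557926 to 23559501), a further BMP target, read -0.999 in control and -0.49 in knockdown cells at 48 h, and -1.20 and -0.39 at 96 h. The groups did not overlap, and the gap was 0.51 at 48 h and 0.81 at 96 h. The log2 fold change was 0.66 ± 0.14 (SE, 95% interval 0.30 to 1.02), or 1.58-fold, with an unadjusted p of 0.00583 (limma adjusted p = 0.387, or 0.0665 with time point as a block). It stayed between 0.60 and 0.68 under the other scalings and filters, and 4.26% of all tested probes had a difference as large.

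ID2 (NM_002166, chromosome 2, 8682056 to 8684461), the remaining ubiquitous ID gene, was measured by 2 probes. The first (A_23_P143143) read 2.51 in control and 2.24 in knockdown cells at 48 h, and 2.33 and 2.40 at 96 h, and the second (A_32_P69368) read 1.71 and 1.496, then 1.57 and 1.51. The first was lower with ALKBH3 shRNA at 48 h and slightly higher at 96 h, with overlapping groups, and the second was lower at both times. Their log2 fold changes were -0.0998 ± 0.14 and -0.14 ± 0.12 (SE, limma adjusted p = 0.953 and 0.904), and the 95% intervals, -0.46 to 0.26 and -0.46 to 0.19, ended below the estimate of ID3. No test compared ID2 with ID1 or ID3.

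**Figure D2:**
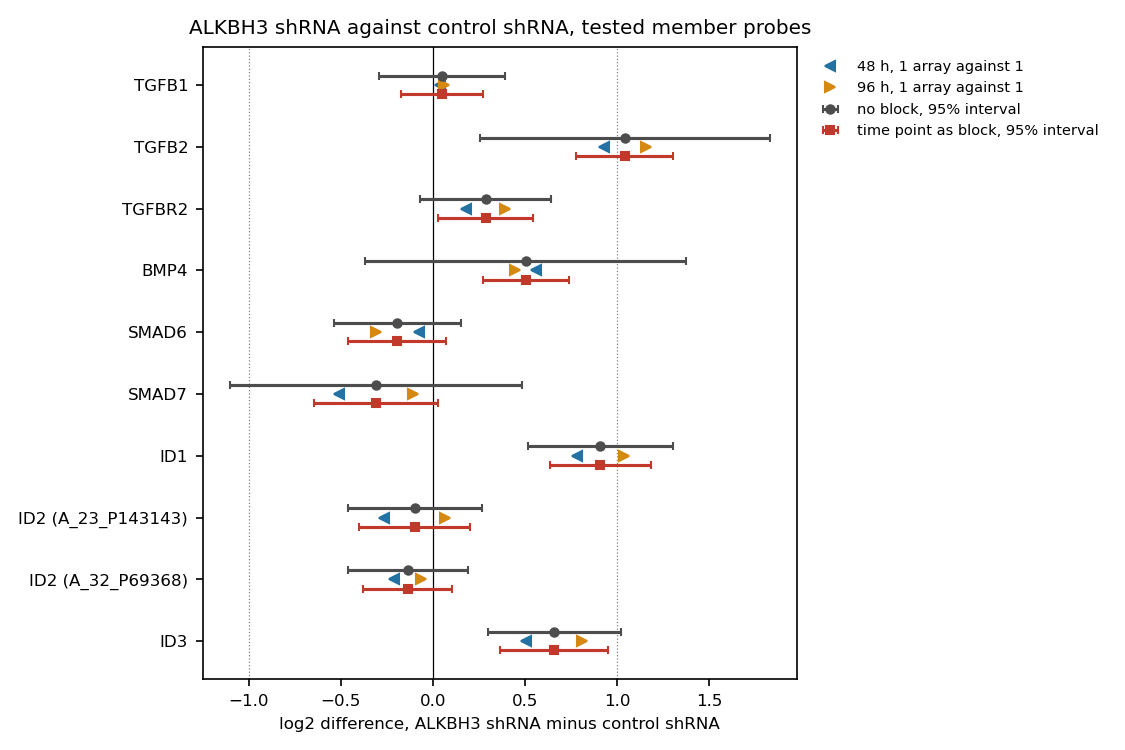
Log2 difference of ALKBH3 shRNA from control shRNA (x axis) for the 10 tested member probes (y axis). Triangles are the single-array differences at 48 h and 96 h, circles and squares the limma estimates without and with time point as a block with their 95% intervals, and dotted lines mark 2-fold. Without a block the intervals of TGFB2, ID1 and ID3 lie above 0, and with it those of TGFBR2 and BMP4 do too. The intervals are not adjusted for the number of probes, and with the block TGFBR2 and BMP4 had limma adjusted p of 0.192 and 0.0709.

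Time of selection was compared in the same 4 arrays, as 96 h minus 48 h in a fit with shRNA as a term. TGFB2 rose and BMP4 fell over selection with both shRNAs. TGFB2 read 0.47 higher at 96 h with control shRNA and 0.70 higher with ALKBH3 shRNA, an estimate of 0.59 ± 0.099 (SE, limma adjusted p = 0.0434), or 1.501-fold higher. BMP4 read 0.61 lower with control shRNA and 0.73 lower with ALKBH3 shRNA, an estimate of -0.67 ± 0.088 (SE, limma adjusted p = 0.0347), or 1.59-fold lower. These were 2 of the 10 member probes past an adjusted p of 0.05, against 8.64% of all probes. None of the 10 met the 2-fold and unadjusted p cutoffs in either direction, against 1.05% of all probes. Both calls may also be differences between slides. Both ended with quantile normalization, where the limma adjusted p was 0.0633 for TGFB2 and 0.0531 for BMP4. They also ended without the shRNA term (0.584 and 0.293) or the filter on dim probes (0.171 and 0.162).

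The other members showed smaller shifts with time. SMAD7 read 0.77 lower at 96 h with control shRNA and 0.37 lower with ALKBH3 shRNA, an estimate of -0.57 ± 0.13 (SE, limma adjusted p = 0.0649). Arrays at 96 h lay wholly below those at 48 h for 3 of the 10 probes, TGFB1, BMP4 and SMAD7, against 24.4% of all probes, and wholly above for 0 of the 10, against 27.4%. ID1 differed by 0.16 between the times (limma adjusted p = 0.331) and ID3 by -0.051 (limma adjusted p = 0.775), and the first ID2 probe by -0.0095 (limma adjusted p = 0.962). ID3, TGFBR2 and both ID2 probes took the opposite sign under normexp correction and in the authors' normalized values.

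**Figure D3:**
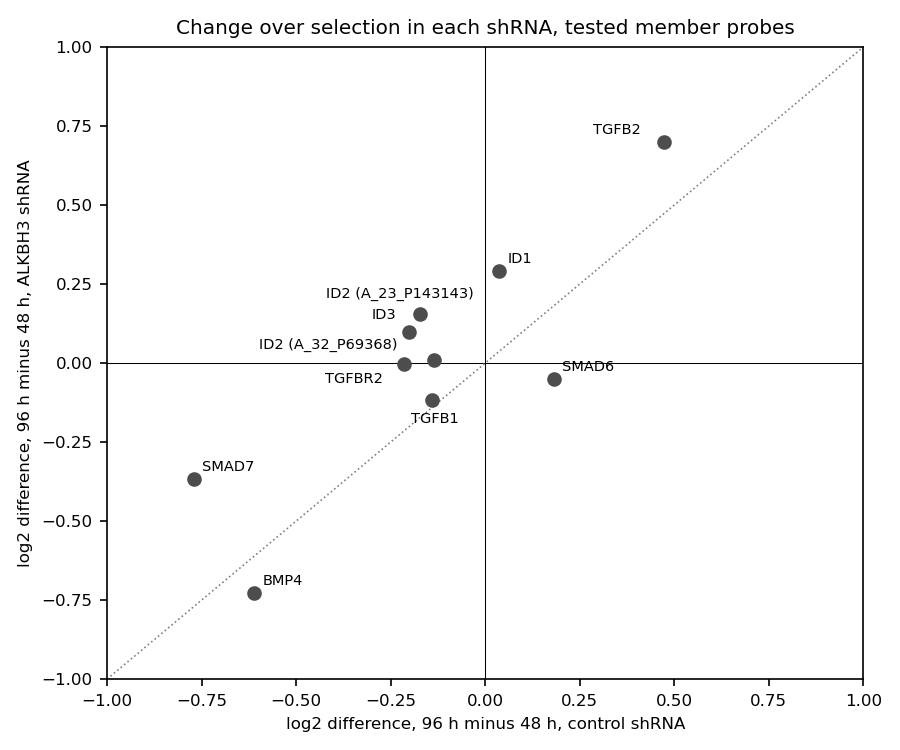
Log2 difference between 96 h and 48 h of selection with control shRNA (x axis) and with ALKBH3 shRNA (y axis) for the 10 tested member probes, each axis a difference of 1 array from 1 array. The dotted line marks equal differences. TGFB2 lies in the upper right at 0.47 and 0.70, BMP4 and SMAD7 in the lower left, and the ID genes nearer to 0.

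Other genes of the pathway were read from a list of 104 symbols, 101 of which had a named probe and 80 a tested one, in 96 probes. With the knockdown, 1 of the 96 was called higher, against 0.895% of all probes, and 0 were called lower, against 0.232%. The limma unadjusted p was under 0.05 for 9 in the higher and 1 in the lower direction, against 7.64% of all probes in either. The groups did not overlap for 24 of the 96 in the higher and 13 in the lower direction, against the 17.5% and 18.5% of all probes given above. Those higher include probes of CHRDL1, GREM1, GDF9 and ID4 that entered the test only through the knockdown arrays, where they are high. The median log2 fold change of the 96 was 0.045, and its median absolute size 0.14. With time point as a block 2 of the 96 passed the adjusted p, CCN2 and a SMAD9 probe, against 2.13% of all probes.

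Of the extracellular antagonists, 5 of 12 probes lay wholly higher and 0 wholly lower with ALKBH3 shRNA, against 17.5% and 18.5% of all probes. Those higher include a CHRDL1 probe (A_24_P168925) and a GREM1 probe (A_23_P432947) not well above background on the control array at 96 h. Both entered the test only through the knockdown arrays, where they are high, and GREM1 is counted by both its probes. No conclusion is drawn from this count. GREM1 encodes gremlin, which binds BMP2 and BMP4 outside the cell and keeps them from their receptors. Its probe A_23_P432947 read -6.33 in control and -5.44 in knockdown cells at 48 h, and -6.50 and -4.84 at 96 h, and was not well above background on the control array at 96 h. It therefore entered the test only through the knockdown arrays, where it is high, and is not tested when all 4 arrays must be above background. Both ALKBH3 shRNA arrays were higher, and the log2 fold change was 1.28 ± 0.23 (SE, limma adjusted p = 0.384), the only call of the list. It was 0.98, short of the call, without the knockdown array at 96 h, 0.84 in the authors' normalized values and 0.50 after normexp correction. The second GREM1 probe (A_33_P3319870) gave 0.65 ± 0.16 (SE, limma adjusted p = 0.451).

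The receptors and the SMADs that carry the signal mostly had small differences. Of 14 receptor probes other than TGFBR2, 3 lay wholly higher and 2 wholly lower, near the 17.5% and 18.5% of all probes, and none had an unadjusted p under 0.05, against 7.64%. TGFBR1, the type I receptor of TGF-beta, gave -0.34 ± 0.16, BMPR2, the BMP type II receptor, gave 0.040 ± 0.15, the 3 probes of the BMP type I receptor BMPR1A gave between -0.11 and 0.10, and the 2 of ACVR1, a further BMP type I receptor, gave -0.17 and -0.13 (all limma log2 fold changes). SMAD1, SMAD2, SMAD3, SMAD4 and SMAD5 gave 0.14, -0.16, -0.012, 0.0056 and -0.26, with limma adjusted p between 0.822 and 0.996.

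SMAD9, the third BMP receptor SMAD, stood apart from them in size. Its probe A_23_P2814 read -1.28 in control and -1.91 in knockdown cells at 48 h, and -1.71 and -2.56 at 96 h, and its probe A_24_P655849 read -2.02 and -2.62, and -2.60 and -3.64. Both probes were lower with ALKBH3 shRNA at both times, with no overlap of the groups. The log2 fold changes were -0.75 ± 0.28 and -0.82 ± 0.40 (SE, limma adjusted p = 0.648 and 0.742, or 0.0494 and 0.0628 with time point as a block). With 1 array left out, the values ran from -1.07 (without the knockdown array at 48 h, which met the 2-fold cutoffs) to -0.42 (without the knockdown array at 96 h) for A_23_P2814, and from -1.34 to -0.31 without the same arrays for A_24_P655849.

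Among ligands, intracellular regulators and targets, the named probes differed as follows. BMP8B, a BMP ligand, gave 0.61 ± 0.12 at one probe (A_32_P780862) and -0.099 at another (A_33_P3365878), so its probes disagreed, and LEFTY1, an antagonist of the ligand NODAL, gave -0.74 ± 0.32 (limma adjusted p = 0.384, 0.940 and 0.700). BAMBI, a decoy receptor induced by BMP and TGF-beta, gave 0.77 ± 0.36, and SKIL, a SMAD co-repressor and TGF-beta target, gave 0.63 ± 0.16 (limma adjusted p = 0.724 and 0.463). With 1 array left out, BAMBI ran from 0.31 (without the knockdown array at 48 h) to 1.23 (without that at 96 h), and LEFTY1 from -1.11 (without the control array at 96 h) to -0.37 (without that at 48 h). CCN2, a matricellular TGF-beta target, read -0.42 and 0.28 at 48 h, and -0.51 and 0.16 at 96 h, with a log2 fold change of 0.69 ± 0.13 (SE, limma adjusted p = 0.384, or 0.0471 with time point as a block). Both ALKBH3 shRNA arrays of CCN2 exceeded both control arrays by nearly the same amount at each time. ID4, the fourth ID gene, gave 0.50 ± 0.26, and the PMEPA1 probes, for a TGF-beta-induced feedback inhibitor, gave -0.081 and 0.14 (limma adjusted p between 0.753 and 0.992). The ID4 probe was not well above background on the control array at 48 h, and its value was 0.041 after normexp correction, 0.099 in the authors' normalized values and between 0.17 and 0.84 with 1 array left out. Chosen after their values were seen, LTBP2, a TGF-beta binding protein of the matrix, gave 0.91, CCN1, a relative of CCN2, gave 0.92, COL1A1, a collagen chain induced by TGF-beta, gave 0.71, and AMHR2, the receptor of anti-Muellerian hormone, gave 0.62 (limma adjusted p between 0.399 and 0.717).

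PMEPA1 moved more with time. Its probe A_24_P413126 read -0.25 in control and -0.62 in knockdown cells at 48 h, and -1.55 and -1.34 at 96 h, an estimate of -1.01 for 96 h minus 48 h (limma adjusted p = 0.0400), and its probe A_33_P3403867 gave -0.66 (limma adjusted p = 0.0341). Both SMAD9 probes, BAMBI and LEFTY1 also read lower at 96 h, by estimates of -0.54, -0.81, -0.71 and -0.62 (limma adjusted p = 0.0486, 0.0421, 0.0474 and 0.0407). In all, 10 of the 96 probes passed the adjusted p for time, against 8.64% of all probes.

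**Figure D4:**
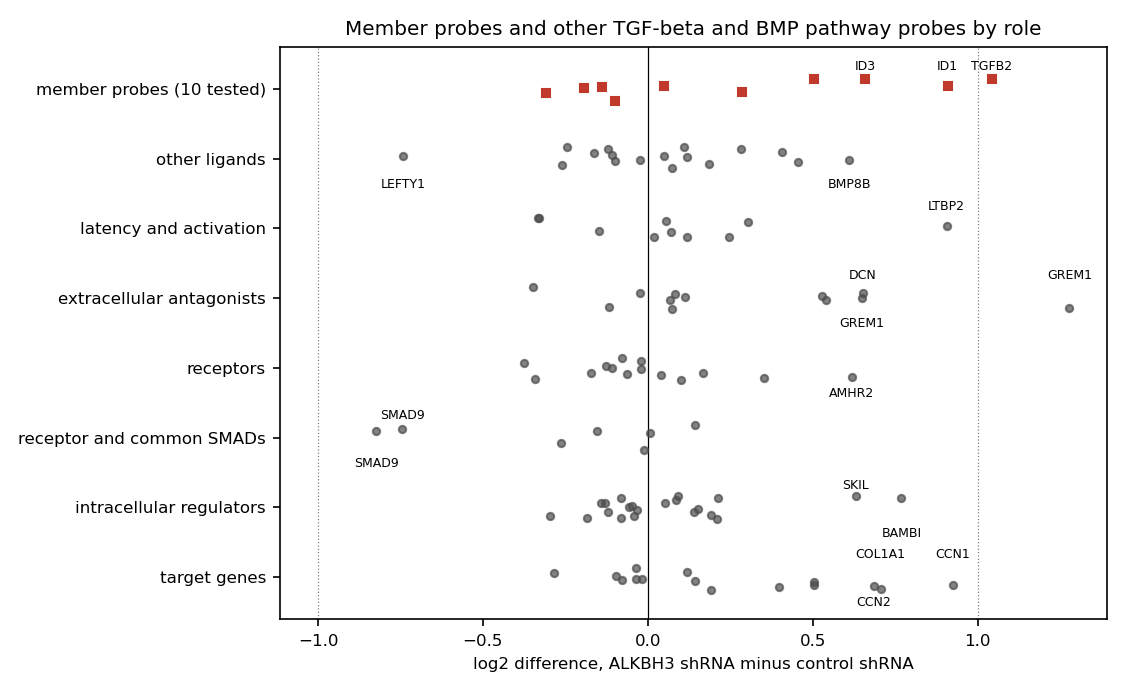
Log2 difference of ALKBH3 shRNA from control shRNA (x axis, limma over 4 arrays) for the 10 tested member probes (squares) and 96 probes of other pathway genes (circles), by role (y axis, points spread vertically for legibility). Dotted lines mark 2-fold, names mark the largest differences whether or not they passed a test, and GREM1 at 1.28 and TGFB2 at 1.04 lie beyond the line.

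Genes whose pattern over the 4 arrays was most like the mean of ID1, ID2 and ID3, each centred on its own mean and with the first ID2 probe, were CDA, BEGAIN, TMEM71, SERPINI2 and ARC, at a distance of 0.033 to 0.053 log2 units (root of the summed squares over the 4 arrays). They were picked as the nearest of all tested named probes outside the members, so their small distances are set by the search. TMEM71, SERPINI2 and ARC read between -6.41 and -4.83, near the dim end of the scale. The ID genes, which were not picked by distance, lay at 0.19 for ID3, 0.44 for ID1 and 0.59 for ID2 from their mean. The 2 sets of distances are therefore not comparable. This describes 4 arrays only.

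Markers of other cell types were read beside these results. Of the leukocyte probes 5 of 7 and of the endothelial probes 2 of 5 were well above background on all 4 arrays, at low signals. They had a summed linear level, relative to the 75th percentile, of 0.222 to 0.238 with control and 0.225 to 0.250 with ALKBH3 shRNA (7 leukocyte probes), and of 0.227 to 0.252 and 0.184 to 0.193 (5 endothelial probes), against 137 to 143 for the 7 epithelial and PC3 probes on the 4 arrays. The 4 fibroblast probes summed to 0.037 to 0.0554 with control and 0.0914 to 0.160 with ALKBH3 shRNA, and 1 of the 4 was well above background on all arrays. LUM gave a log2 fold change of 1.98 and one DCN probe 0.65 (limma adjusted p = 0.527 and 0.384), while COL1A2 and the other DCN probe were not well above background on any array. With time point as a block the limma adjusted p was 0.0247 for LUM and 0.0561 for DCN. LUM was well above background on only 3 of the 4 arrays. It read lowest, at -6.19, on the control array at 96 h, so its fold change and p rest in part on a dim control reading. Of the epithelial and PC3 probes, EPCAM gave 0.98 (limma adjusted p = 0.451, or 0.0377 with the block) and CDH1 0.74 (0.894, or 0.0583), while KRT8 gave 0.031 and 0.17, KRT18 -0.078 and -0.073, and VIM -0.13. Of the endothelial genes, PECAM1 gave -0.59 at both tested probes (limma adjusted p = 0.717 and 0.783), CDH5 gave -0.20 and VWF 0.29. LUM, DCN, EPCAM, CDH1, KRT8 and VWF had the same sign as TGFB2, ID1 and ID3, while KRT18, VIM, PECAM1 and CDH5 had the opposite sign. The part of these markers in the result was not tested.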

How the data were processed

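Per the labels and methods, RNA of PC3 cells was hybridised to Agilent 4x44K v2 single-colour arrays. The authors deposited, for each of 4 arrays, spot intensity values that Agilent Feature Extraction (10.7.3.1 in the file headers, protocol GE1_107_Sep09) had background-subtracted without normalization between arrays. The authors also deposited normalized log2 values for the series, whose medians are 7.52 to 7.54 and which correlate at 0.989 to 0.992 with the log2 intensities. The method within limma is not given in the sources used here, and they served as an alternative. The series table held no further columns of samples.

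Control spots (1377) were left out, leaving 43118, and spots marked as non-uniform or as population outliers (180 to 379 on an array) were removed, and 0 were saturated. Log2 intensities were centred on the 75th percentile of each array and spots of a probe averaged. Probes well above background for at least 0.5 of their spots on each array of 1 shRNA or of both entered the test, after 25 with a missing value were dropped. The scanner files used here hold accessions and no gene names, so symbols came from matching accessions without versions to the RefSeq gene annotation (GRCh38.p14). A symbol was found for 24910 of 34127 probes, and gene coordinates are from the same annotation.

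The shRNAs were compared with limma's lmFit and eBayes functions (R 4.3.3, limma 3.58.1, data.table version 1.17.8), 2 arrays against 2, over all 23244 tested probes, with Benjamini-Hochberg adjustment over them, and the time points with shRNA as a term. Differences within a time point rest on 1 array of each shRNA and have no test. Same time points share a label and may share a slide. The arrays of a time point deviated together from their group means (r = 0.66 over probes). The time point was therefore also fitted as a replicate block. That fit, like the time comparison, leaves 1 residual degree of freedom. Its SE, interval and p therefore rest largely on the variance that limma pools over all tested probes, and little on the spread of the probe itself. The time comparison has the time point as its contrast and cannot be blocked by it. Motifs were counted with Python 3.11.15 and pandas 2.3.3, and plots made with matplotlib 3.10.9. The fits were also run on simulated data with noise independent between arrays. That setting lacks the deviation shared by arrays of a time point, so it cannot decide between the fits with and without the block. The text names the 10 members, ALKBH3, a fixed set of receptors, SMADs and targets, and other pathway genes called or at least 1.5-fold in 1 direction at 48 h and 96 h. Some genes of the lists are not reported here by name. The members, lists and rule were chosen with earlier results of these data known. The number of arrays limits the precision.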

Additional observations from a re-analysis of the deposited data

Results flagged for a closer look

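At 5 probes named above, the difference between ALKBH3 and control shRNA had opposite signs at 48 h and 96 h, where each is 1 array against 1, so the difference between the times was not tested. The first ID2 probe (A_23_P143143) gave -0.26 at 48 h and 0.064 at 96 h, a gap of -0.33. A larger gap was that of the PMEPA1 probe A_24_P413126 (-0.37 and 0.21, gap -0.57). Smaller ones were those of SMAD3 (-0.11 and 0.088, gap -0.20), SMAD4 (-0.041 and 0.052, gap -0.094) and BMPR2 (0.11 and -0.032, gap 0.14).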

How the results depend on the processing

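The values come from 4 arrays, and each shRNA was repeated only across the times. Among member probes, 101 of 109 knockdown values under other settings kept their direction and their side of the cutoffs. This count does not measure robustness. Changed filters, genes in place of probes, the time block, the t-test and the 1.5-fold cutoff reuse the same log2 fold changes. For ID1 the value was 0.91 under each of them. Direction could therefore turn only with another scaling, normexp correction or the authors' values. Only 1 member probe was called in the main fit, so the others had no call to lose. With an array left out, 3 of 40 values reversed direction. Centring moved the median of all probes most with median centring, from 0.0033 to -0.052.

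The 208 higher and 54 lower probes became 87 and 26 with normexp correction, 498 and 113 without the filter on dim probes, 60 and 24 with the methods' t-test, and 599 and 292 at a 1.5-fold cutoff. The higher count was 118 in the authors' normalized values and 123 for probes above background on all 4 arrays, and the lower count was 35 for genes in place of probes. With time point as a replicate block, 496 probes and 2 member probes passed the adjusted p in place of 0. The 1 called member probe became 0 with median centring, quantile normalization, normexp correction, the authors' values and the t-test, and 3 at 1.5-fold. With an array left out, the counts were 240 to 515 higher, 52 to 138 lower and 0 to 2 member probes.

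For time, the 50 higher and 195 lower probes became 15 and 82 with normexp correction and 33 and 126 without the shRNA term. The higher count was 25 in the authors' values and 872 without the filter. The 2008 probes past the adjusted p became 583 with quantile normalization, 5119 with normexp correction, 5107 in the authors' values, and 0 without the filter or without the shRNA term. The 2 member probes became 0 with quantile normalization, without the filter and without the shRNA term. With an array left out, the time fit has no residual degrees of freedom, so it gives values and no counts.

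Signs turned at small values. With median centring BMPR2 became -0.016, SMAD4 -0.0500 and TGFB1 -0.0057. SMAD3 became 0.0068 with the percentile over probes above background on all arrays, SMAD4 -0.011 with quantile normalization, and BMPR2 -0.063 with normexp correction and -0.091 in the authors' values. With an array left out, the knockdown value ranged from -0.35 to 0.096 for ACVR1 A_33_P3360665, -0.11 to 0.065 for BMPR1A A_23_P1431, -0.23 to 0.014 for BMPR1A A_33_P3219256, -0.083 to 0.16 for BMPR2, -0.73 to 0.57 for PMEPA1 A_24_P413126, -0.20 to 0.48 for PMEPA1 A_33_P3403867, -0.24 to 0.22 for SMAD3, -0.021 to 0.032 for SMAD4, -0.69 to 0.076 for SMAD7 and -0.021 to 0.12 for TGFB1. For time, the first ID2 probe became 0.019 with median centring, 0.039 with normexp correction and 0.0026 in the authors' values. The second ID2 probe, ID3 and TGFBR2 became 0.0404, 0.079 and 0.076 with normexp correction and 0.019, 0.081 and 0.0401 in the authors' values. The cause was not tested.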
